A study of Mus musculus with 10 samples.

Results

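Among 105302 sites obtained by merging the open-chromatin peaks of 6 ATAC-seq libraries over chromosomes 1 to 19, 1464 were open in every library, lay away from annotated promoters and carried trimethylation of lysine 4 on histone H3 (H3K4me3) in both states in which the mark was mapped. A site belonged to this set when it held a peak in all 6 lists, did not touch the 1 kb on either side of any annotated transcription start site (TSS), and overlapped an H3K4me3 region of the quiescent list and one of the activated list. The first condition left 22589 constitutively open sites, and the second left 10286 of them as distal. Of those distal sites, 8267 overlapped no H3K4me3 region, 460 overlapped one in the quiescent list alone and 95 in the activated list alone. The 11052 constitutively open promoters with H3K4me3 in both states are the other class used for comparison below. The sites were thus selected on the presence of peaks and of the mark and on distance from a TSS, which are not findings.

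The cells were primary C57BL/6 mouse neural stem and progenitor cells (NSPCs) taken from brains at postnatal day 5, a mixed culture in which stem cells cannot be separated from progenitors. Activated NSPCs grew in 20 ng/ml FGF2 and 20 ng/ml EGF. Quiescent NSPCs were held in 20 ng/ml FGF2 and 25 ng/ml BMP4 with EGF withdrawn, for 4 days by the labels and for a shorter time by the study's ATAC-seq methods. Reactivated NSPCs went through the same quiescence medium and were then returned to both growth factors for 9 to 12 days. Each of the 3 states had 2 ATAC-seq libraries, while H3K4me3 ChIP-seq was made from 1 library each of quiescent and activated NSPCs, so every H3K4me3 comparison is without replicates. The study's methods describe the ATAC-seq replicates of activated and quiescent NSPCs as biologically independent, and p-values measure the spread between 2 libraries per state. Promoters of 7 of 8 neural stem cell markers were open in all 6 lists, against 3 of 8 neuronal markers, 1 of 6 markers of myelinating oligodendrocytes, 0 of 7 microglial markers and 0 of 6 endothelial markers. The lists held 47323 to 60881 peaks in the quiescent and activated libraries and 106586 and 107137 in the reactivated libraries.

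H3K4me3 is laid down by the SET1 and MLL methyltransferase complexes, which are drawn to unmethylated CpG-rich DNA, and it is best known from the promoters of genes transcribed by RNA polymerase II. Distal enhancers usually carry the monomethylated form of the same residue, and trimethylation away from genes is less common. Open distal sites with H3K4me3 can be promoters missing from an annotation, genes transcribed by RNA polymerase III such as tRNA genes, the edges of broad promoter domains, or enhancers with an unusual amount of the mark. The data bear on which of these lay at each site, and not on transcription, which was not measured here.

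The underlying DNA ranged from CpG islands to stretches with no CpG at all. The following 200-base windows, centred on ATAC summits and read on the + strand of GRCm38.p6 (mm10, RefSeq genome), show both ends of that range among sites of high accessibility, with each CpG in capitals.

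CpG-rich site downstream of the Ccne1 TSS, chr7:38084901-38085100: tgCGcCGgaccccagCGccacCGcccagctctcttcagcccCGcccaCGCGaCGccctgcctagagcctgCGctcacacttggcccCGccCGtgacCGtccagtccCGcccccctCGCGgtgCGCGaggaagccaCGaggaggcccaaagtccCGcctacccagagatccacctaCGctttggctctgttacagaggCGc

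CpG-rich site nearest Gm22118, chr13:107831269-107831468: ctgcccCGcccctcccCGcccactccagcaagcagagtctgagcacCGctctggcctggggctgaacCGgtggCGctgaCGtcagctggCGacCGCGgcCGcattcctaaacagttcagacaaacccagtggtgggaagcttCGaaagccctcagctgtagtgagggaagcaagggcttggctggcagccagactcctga

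CpG-poor site nearest Gm12663, chr11:16591564-16591763: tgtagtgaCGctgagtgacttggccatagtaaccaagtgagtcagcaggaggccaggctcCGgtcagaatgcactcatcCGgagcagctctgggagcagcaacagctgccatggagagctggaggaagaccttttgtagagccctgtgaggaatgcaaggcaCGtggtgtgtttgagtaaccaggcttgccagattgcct

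CpG-poor site in a Fat3 intron, chr9:16484970-16485169: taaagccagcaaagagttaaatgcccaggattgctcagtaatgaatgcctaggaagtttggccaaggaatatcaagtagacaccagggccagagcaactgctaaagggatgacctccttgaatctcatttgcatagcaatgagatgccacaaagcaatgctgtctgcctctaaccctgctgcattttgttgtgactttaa

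The window near Ccne1, the gene of cyclin E1, held 21 CpG dinucleotides and that near Gm22118 held 11, against 4 near Gm12663 and 0 in the intron of Fat3, which encodes an atypical cadherin. All 4 were highly accessible, with a mean percentile rank of 98.7 to 99.6 over the 6 peak lists. The Ccne1 site (chr7:38084756-38085416, 14368 bp downstream of the nearest Ccne1 TSS, intergenic) had an ATAC fold enrichment of 13.95 and 13.7 in the quiescent libraries, 14.98 and 12.9 in the activated ones and 17.4 and 19.5 in the reactivated ones. Fold enrichment is the peak's read pileup divided by the local background, as the peak caller gave it. At the Fat3 site (chr9:16484812-16485660) it was 17.9 and 16.2, 15.3 and 11.4, and 18.8 and 20.2 in the same order. Accessibility of this size was thus found with and without CpG dinucleotides.

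Over all 1464 sites, sequence composition lay between that of the other classes. In the 300 bp around the summit, 29.5% of sites were CpG-rich (observed over expected CpG of at least 0.6 and GC content of at least 50%; exact 95% interval 27.2 to 31.9%), against 1.60% of constitutively open distal sites without H3K4me3 and 83.3% of the promoters. The median observed over expected CpG was 0.465, 0.190 and 0.831 in these classes, and the median GC content 54.7%, 50.7% and 65.7%. Intervals cover counting error only, sites are not replicates, and no test across sites was made.

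Short motifs divided along the same line. The GC box, bound by SP and KLF factors and searched as GGGCGG on both strands, occurred in 32.2% of the distal H3K4me3 sites, 8.21% of the unmarked distal sites and 73.0% of the promoters. The core bound by NRF1, TGCGCA, occurred in 8.67%, 2.43% and 15.6%, and the ETS motif CCGGAAG in 5.74%, 2.08% and 18.5%. All 3 motifs contain a CpG, and their shares followed the CpG content of the classes. The CCAAT box, which has none, occurred in 34.1%, 32.3% and 39.2%.

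Enhancer, insulator and core promoter motifs were counted in the same windows. The E-box CAGCTG, a motif of basic helix-loop-helix factors, occurred in 28.3% of the distal H3K4me3 sites, 33.3% of unmarked sites and 16.8% of promoters. The AP-1 motif TGANTCA occurred in 9.84%, 12.7% and 3.38%, and the TATA box TATAAA, a core promoter element, in 6.35%, 8.98% and 3.66%. A CTCF motif was found in 57 of the 1464 windows, or 3.89% (2.96 to 5.02%), against 6.16% and 1.23%. The palindromic NFI motif was in 0 of 1464 windows, which allows a share of up to 0.252% (exact upper limit), and in 0.218% of unmarked sites. A match shows only that the letters are present, and the absence of one says nothing about a factor.

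**Figure D1:**
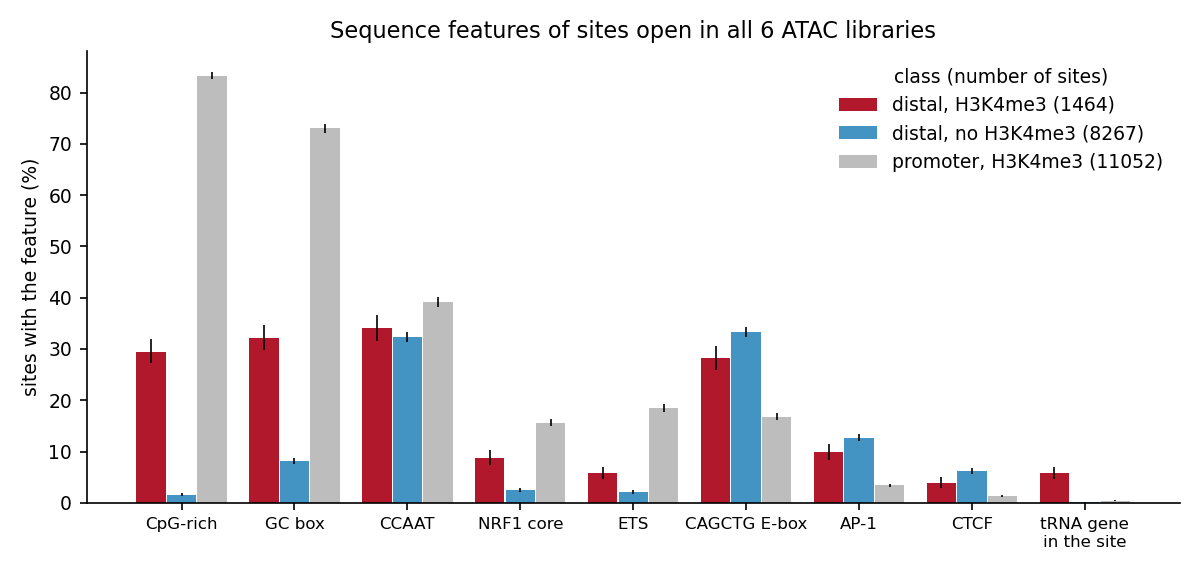
Share of sites (%, vertical axis) with each sequence feature in the 300 bp around the summit or, at the right, a tRNA gene in the site, for the 1464 distal H3K4me3 sites and the other classes of constitutively open sites, with exact 95% intervals as bars. CpG-rich sequence was present in 29.5% of the distal H3K4me3 sites, between 1.60% of unmarked distal sites and 83.3% of promoters.

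The CTCF example below (chr11:62756871-62757070, + strand) carries its motif in capitals and is shown because the sequence around it is GC-rich without being a promoter by annotation.

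Site with a CTCF motif, chr11:62756871-62757070: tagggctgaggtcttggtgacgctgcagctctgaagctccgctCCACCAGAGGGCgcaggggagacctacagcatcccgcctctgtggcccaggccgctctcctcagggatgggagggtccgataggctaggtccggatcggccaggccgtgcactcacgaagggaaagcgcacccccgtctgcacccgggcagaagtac

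The sites were spread over all 19 autosomes, from 40 on chromosome 19 to 114 on chromosome 11. Of the 1464, 762 (52.0%) were intergenic, 575 (39.3%) intronic and 127 (8.67%) exonic by summit position. The median distance from summit to the nearest TSS was 8190 bp, against 13870 bp for unmarked distal sites, and 650 sites lay more than 10 kb away. The sites were wider than unmarked distal sites (median 639 against 510 bp) and narrower than promoters (815 bp). The rule had a limit of 1 kb. The 3 sites nearest to the limit from outside, at Jade2, Hist1h1b and Dtx4, lay 1001, 1001 and 1008 bp from a TSS, and their H3K4me3 was 31.8, 26.6 and 40.6 (fold enrichment, quiescent) and 29.2, 29.6 and 29.7 (activated). The 3 nearest from inside, at 2310034G01Rik, Zfand5 and Carmil2, lay at 999, 995 and 993 bp, where it was 37.4, 45.0 and 16.2 (quiescent) and 41.9, 45.5 and 11.2 (activated).

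What lay at each site divided the set into 4 kinds. A tRNA gene overlapped 84 sites (5.74%, 4.60 to 7.05%). A further 242 had a RefSeq transcript start within 1 kb that the GENCODE annotation used for the rule does not hold. Another 154 lay in an H3K4me3 region that also covered an annotated TSS, and are called flanks of promoter regions below. The remaining 984 (67.2%) had none of these. The look-up of tRNA genes and of RefSeq starts was chosen after the first values had been seen. Counting every overlap, 256 sites (17.5%) were within 1 kb of a RefSeq start, against 3.96% of unmarked distal sites, but curated RefSeq transcripts accounted for 61 of the 1464 (4.17%). In all, 209 sites (14.3%, 12.5 to 16.2%) shared an H3K4me3 region with an annotated TSS.

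The H3K4me3 at these sites was mostly weak and narrow compared with promoters. Median H3K4me3 fold enrichment was 8.64 in quiescent and 7.74 in activated NSPCs, against 38.4 and 35.9 at the promoters, and the median width of the region was 1101 and 1022 bp, against 2265 and 2128 bp. The summit itself lay inside the H3K4me3 region of both states at 73.9% of sites and of neither at 161 sites. The latter sites entered the set because their edge touched a marked region.

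The strength of the mark differed between the kinds. Flanks of promoter regions had the highest median, 34.2 in quiescent and 31.6 in activated NSPCs, followed by sites with a tRNA gene (25.9 and 21.5) and sites with a RefSeq start (16.2 and 13.7). The value at a site is that of the H3K4me3 region it overlaps. For flanks this region covers a TSS by definition, so their high median describes the promoter region and not the site itself. The 984 sites with none of these had 6.35 and 5.64, with regions of 898.5 and 785 bp. When the 1464 sites were ordered by mean H3K4me3 fold enrichment and cut into 4 groups of 366, tRNA genes lay at 1, 0, 26 and 57 sites from the lowest to the highest group. CpG-rich sequence occurred in 5.19%, 24.3%, 48.1% and 40.4% of the groups. Across the 1255 sites whose H3K4me3 region covered no annotated TSS, Spearman's rho between observed over expected CpG and H3K4me3 fold enrichment was 0.541, a description across sites that share the same pair of libraries and whose fold enrichment can follow base composition.

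The 1464 sites fell into 1363 H3K4me3 regions, of which 1171 covered no annotated TSS. Most regions, 1278, held 1 site, 72 held 2, 10 held 3 and 3 held 4. The regions with 4 were at chr11:69414223-69420325 next to Kdm6b, the gene of an H3K27 demethylase, at chr13:21166148-21174329 upstream of Trim27, and at chr15:85664450-85688428 at Lncppara. Few TSS-free regions adjoined a promoter domain, as 45 of 1171 (3.84%, 2.82 to 5.11%) lay within 2 kb of a region with a TSS, and the median gap was 34212 bp.

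The 5 widest H3K4me3 domains with such a site differed in the accessibility of their sites. The domain over C130071C03Rik was 24023 bp wide in quiescent and 23281 bp in activated NSPCs, and its most accessible distal site (chr13:83741562-83742063, intron) had an ATAC fold enrichment of 3.34 and 3.52, 3.70 and 3.09, and 4.40 and 5.04 in quiescent, activated and reactivated libraries. The site at Lncppara (chr15:85678885-85679648) lay in a domain of 23979 and 17583 bp and had 5.63 and 7.03, 4.78 and 5.17, and 9.00 and 8.04. The domain over the neighbouring starts of Nfib and Gm11266 was 19330 and 19556 bp wide. NFIB belongs to the nuclear factor I family, which acts in neural stem cells and glia, and the site in its intron (chr4:82512955-82513603) was CpG-rich with 9.33 and 11.1, 12.3 and 10.8, and 13.7 and 13.5. Domains at Pantr1 (14302 and 13745 bp) and at Pcdh10, which encodes a protocadherin (11136 and 10822 bp), completed the 5 widest by mean width over both states, among regions that held one of the distal sites.

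H3K4me3 was close to equal in both states. The median log2 ratio of activated to quiescent fold enrichment was -0.14 (SD across sites 0.40), against -0.11 over the 15031 H3K4me3 regions present in both lists. In the quiescent list 989 of 1464 sites were higher, as were 9867 of the 15031 regions, a similar share. More than 1.5-fold higher in quiescent NSPCs were 156 sites (10.7%), where 6.69% of all regions were, and more than 1.5-fold higher in activated NSPCs were 38 (2.60%), where 1.39% of all regions were. Spearman's rho between the states was 0.925 over the 1464 sites. At the regions no stronger than the median of this set, the median log2 ratio was -0.08. With 1 library per state no difference was tested.

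An exonic site of Jmjd1c (chr10:67225978-67226573), which encodes a jumonji-family protein of the histone demethylase group, had an H3K4me3 fold enrichment of 16.6 in quiescent and 6.41 in activated NSPCs, and its region narrowed from 2311 to 1109 bp. A site downstream of Dll4, which encodes a Notch ligand (chr2:119337809-119338312, CpG-rich), had 25.1 and 12.95. In the other direction, the site nearest Gm12663 had 4.40 and 9.14.

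**Figure D2:**
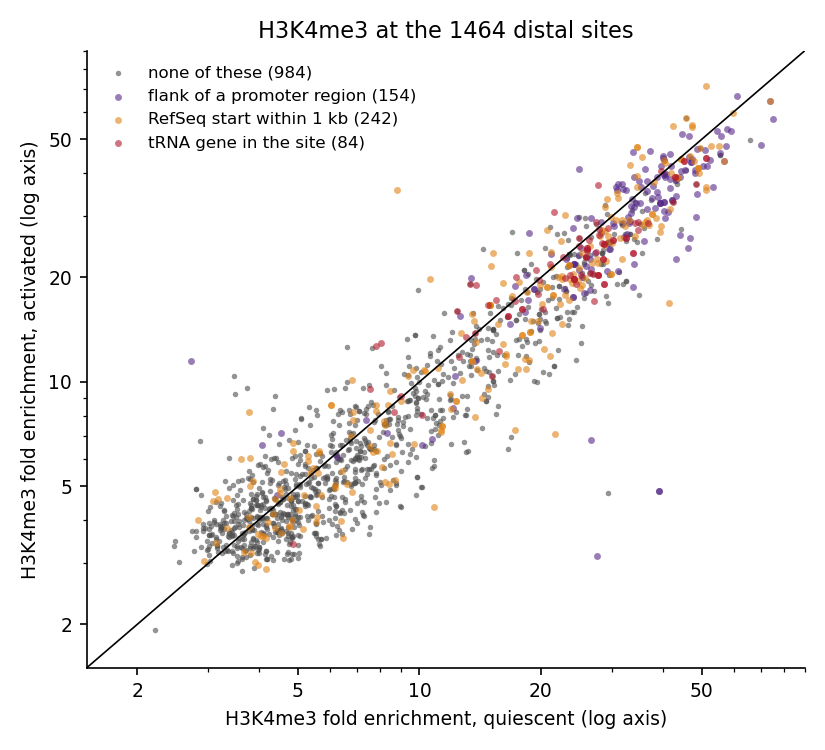
H3K4me3 fold enrichment of the 1464 distal sites in quiescent (horizontal, log axis) and activated NSPCs (vertical, log axis), 1 point per site coloured by what lies there. Sites with a tRNA gene and flanks of promoter regions sit in the upper part of the range (quiescent medians 25.9 and 34.2), and sites with none of the annotations in the lower part (6.35).

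Accessibility was ranked within each library as the percentile of a site's fold enrichment among all peaks of that list. The mean percentile over the 6 libraries had a median of 72.0 for the distal H3K4me3 sites, 67.8 for unmarked distal sites and 85.3 for promoters. Median ATAC fold enrichment was 5.26 and 4.89 for quiescent, 6.85 and 5.70 for activated, and 9.25 and 9.65 for reactivated libraries. The higher level in reactivated libraries was shared by unmarked distal sites (9.41 and 9.46) and promoters (11.5 and 12.2), and comparisons between states were therefore made after quantile normalization. In every list, 84 sites (5.74%) were at or above percentile 90, against 11.5% of all constitutively open sites. Below the median in every list were 29 (1.98%), against 1.80% of all constitutively open sites.

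A stronger mark did not go with higher accessibility. Mean percentile medians were 74.5, 75.3, 72.7 and 63.0 from the lowest to the highest H3K4me3 group, with a rho of -0.193 over all 1464 sites, and of -0.04 over the 1255 sites in TSS-free regions. Sites with none of the annotations had a median of 75.3, sites with a RefSeq start 69.8, sites with a tRNA gene 63.0 and flanks of promoter regions 57.9.

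The 6 most accessible sites were nearest to Gm12663, Sf3b5, Gm22118, BC002059, Sybu and Fat3. The site near Gm12663 (chr11:16591414-16592074, 44402 bp from its TSS, intergenic) had 14.8 and 15.4, 19.7 and 18.4, and 20.0 and 20.6 in quiescent, activated and reactivated libraries, and the 300 bp around its summit hold both a TATA box and an AP-1 match. The site 3042 bp beyond the start of Sf3b5, a component of the SF3B splicing complex (chr10:13008149-13008972, exon), had 12.6 and 15.9, 17.6 and 14.04, and 19.6 and 22.7. It differed from the others in its H3K4me3, 47.3 and 54.2, which was above the promoter median, and it lay within 1 kb of a RefSeq start. At the 4 others H3K4me3 ranged from 4.65 near Gm22118 to 32.3 near BC002059 in quiescent NSPCs.

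The site farthest from a TSS was on chromosome 16, 330851 bp from 4930428D20Rik (chr16:69469410-69469819), with ATAC fold enrichments of 3.68 and 3.97, 3.18 and 2.42, and 9.34 and 5.98, and H3K4me3 of 6.43 and 4.65. The site 261729 bp from Fzd1, which encodes a Wnt receptor (chr5:4496091-4496571), was among the most accessible, with 12.9 and 14.2, 15.4 and 12.8, and 22.1 and 18.1, beside H3K4me3 of 3.53 and 4.71. Remoteness from genes thus went with both weak and strong accessibility.

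**Figure D3:**
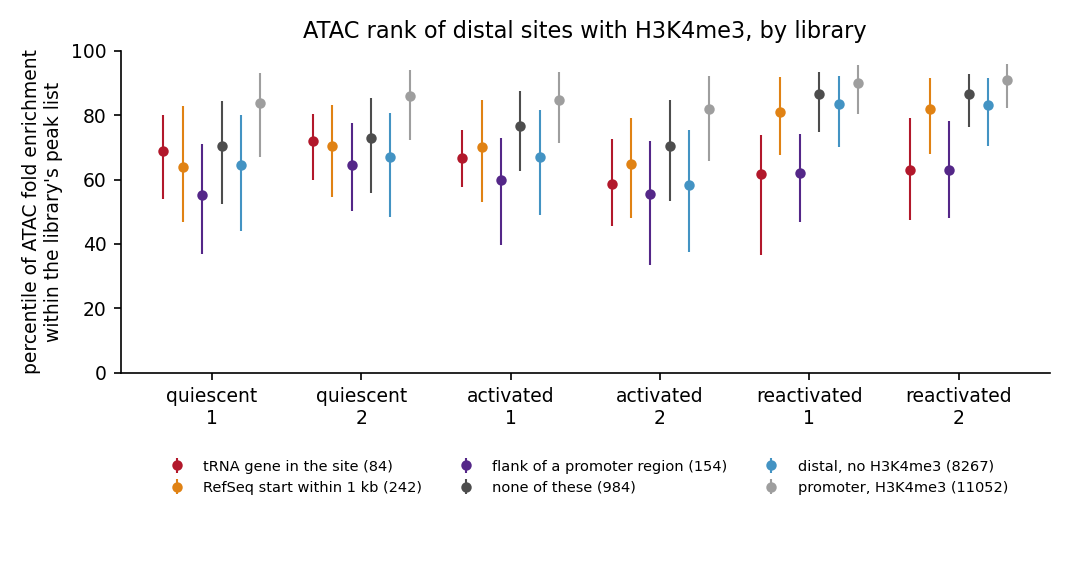
Percentile of ATAC fold enrichment within each library's peak list (vertical axis) for the 4 kinds of distal H3K4me3 site and the other classes, with points at the median and bars from the lower to the upper quartile. Median percentiles of the tRNA sites were 68.9 and 71.9 (quiescent libraries), 66.6 and 58.6 (activated libraries), then 61.8 and 63.0 (reactivated libraries). The second activated library thus lay below both reactivated ones. Sites with none of the annotations had 70.5 and 72.8, 76.7 and 70.5, then 86.5 and 86.7, with states listed as before. Peak lists of reactivated libraries were longer, and a percentile depends on its list.

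RefSeq places 386 tRNA genes on chromosomes 1 to 19, of which 237 lay in a merged ATAC site, 166 in a constitutively open one and 103 in the distal H3K4me3 sites. A tRNA gene was found at 5.74% of these sites, 0.0847% of unmarked distal sites and 0.389% of promoters. The 84 sites, 15 of which held more than 1 tRNA gene, lay on 14 chromosomes in 65 H3K4me3 regions. Within 100 kb of each other they formed 36 groups. The largest had 9 sites with 12 tRNA genes at chr13:21160742-21279980 around Trim27, and 7 sites each lay at chr1:171033776-171111851 and chr13:21940268-22051488.

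tRNA genes are read by RNA polymerase III from a promoter inside the gene, whose B box is bound by TFIIIC, and transcription ends at a run of T. These 4 genes, with 30 bases on either side and read 5′ to 3′ along the gene, show the parts concerned, with the tRNA gene in capitals. They were chosen as those in the most accessible sites and those in the sites of highest H3K4me3.

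tRNA-Glu n-TEttc7, chr7:58399285-58399416, + strand: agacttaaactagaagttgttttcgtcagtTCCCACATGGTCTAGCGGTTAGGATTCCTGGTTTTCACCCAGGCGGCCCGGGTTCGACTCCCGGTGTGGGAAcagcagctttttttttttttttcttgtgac

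tRNA-Ser n-TSgct5, chr13:22050656-22050797, - strand: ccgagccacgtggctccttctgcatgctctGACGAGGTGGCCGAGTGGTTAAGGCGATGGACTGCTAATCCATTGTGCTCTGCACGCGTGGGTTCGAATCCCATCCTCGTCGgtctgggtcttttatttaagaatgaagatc

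tRNA-Pro n-TPtgg6, chr17:23546446-23546577, - strand: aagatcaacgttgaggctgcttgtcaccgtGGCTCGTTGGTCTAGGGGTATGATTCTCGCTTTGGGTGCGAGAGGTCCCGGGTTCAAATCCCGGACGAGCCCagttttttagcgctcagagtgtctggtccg

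tRNA-Lys n-TKctt14, chr17:23547330-23547462, + strand: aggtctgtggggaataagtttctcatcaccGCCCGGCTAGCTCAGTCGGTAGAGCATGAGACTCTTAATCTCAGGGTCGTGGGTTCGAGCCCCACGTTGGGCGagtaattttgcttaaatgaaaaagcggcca

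The exact B-box letters GGTTCGA were in 3 of these 4, while tRNA-Pro n-TPtgg6 holds GGTTCAA. A gene without these exact letters can thus still have a B box. Of the 103 tRNA genes in distal H3K4me3 sites, 74 (71.8%, 62.1 to 80.3%) held these letters. They were in 61 of 149 (40.9%) of the tRNA genes in no merged ATAC site and 114 of 166 (68.7%) of those in any constitutively open site. A run of TTTT within 30 bases of the gene's end was found for 98 of 103 (95.1%), 110 of 149 (73.8%) and 156 of 166 (94.0%). Isotypes were unevenly represented. The sites held 16 of 25 tRNA-Leu, 9 of 23 tRNA-Arg and 8 of 15 tRNA-Pro genes, but 2 of 57 tRNA-Cys and 0 of 8 tRNA-Trp genes.

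The site with tRNA-Glu n-TEttc7 (chr7:58398525-58399652, 118962 bp from the nearest TSS, Gm44852) had ATAC fold enrichments of 12.1 and 10.9, 14.1 and 13.1, and 15.6 and 15.7, with H3K4me3 of 13.04 and 13.4. The site with tRNA-Ser n-TSgct5 (chr13:22050606-22051488) had 10.2 and 11.4, 13.7 and 13.3, and 13.2 and 16.6. These were the 2 most accessible tRNA sites. tRNA-Pro n-TPtgg6 and tRNA-Lys n-TKctt14 lay under 1 kb apart in 1 H3K4me3 region with the highest enrichment among the tRNA sites, 51.2 in quiescent and 44.1 in activated NSPCs, while their ATAC fold enrichment was 2.93 to 5.23 in all libraries.

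A tandem array on chromosome 6 held 18 of the sites between positions 47654814 and 47778726. They were nearest to Gm25283 (8 sites) and to Rny3, the gene of a Y RNA (10 sites), with a median spacing of 4349 bp between starts, and 17 of the 18 were CpG-rich. H3K4me3 ranged from 5.01 to 26.5 in quiescent (median 19.9) and from 3.63 to 27.9 in activated NSPCs (median 20.6). The 200-base window of the first site, shown here with CpG in capitals, was at least 93% identical to a window of the same length at 14 of the other 17, while elsewhere in the set the closest match was 59%.

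First site of the array, chr6:47655015-47655214, + strand: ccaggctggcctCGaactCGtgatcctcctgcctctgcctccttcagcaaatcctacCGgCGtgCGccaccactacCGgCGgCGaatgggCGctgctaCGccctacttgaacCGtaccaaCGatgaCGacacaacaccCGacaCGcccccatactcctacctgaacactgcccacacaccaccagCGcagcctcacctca

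Reads from copies this alike cannot be assigned to 1 copy with certainty, so fold enrichments within the array are uncertain. Outside it, 28 of 1446 sites (1.94%) shared at least 50% of the 31-base words in their window with another constitutively open site, as did 1.84% of unmarked distal sites, and none of the 84 tRNA sites did so.

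Comparing quiescent with activated NSPCs asks which of these sites changed accessibility while staying open. limma on quantile-normalized log2 fold enrichment over the 22589 constitutively open sites called 47 of the 1464 sites higher in quiescent NSPCs and 121 higher in activated NSPCs at a Benjamini-Hochberg adjusted p below 0.05. These are 3.21% and 8.27% of the sites, where 4.66% and 6.09% of all constitutively open sites were called. Unmarked distal sites had 737 and 855 calls of 8267, and promoters 139 and 203 of 11052. By kind, 28 and 99 calls fell among the 984 sites without annotation, 9 and 18 among those with a RefSeq start, 9 and 4 among flanks of promoter regions, and 1 and 0 among tRNA sites. Sites without CpG-rich sequence had 41 and 101 calls of 1032 and CpG-rich sites 6 and 20 of 432. The rule removed sites that closed in a state, so large changes were left out by design. Without normalization 20 sites (1.37%, against 1.97% of all sites) were higher in quiescent and 198 (13.5%, against 9.64%) in activated NSPCs, with the median of all sites at -0.15. The count fell to 87 without the first quiescent library, 99 without the second and 106 without the second activated library, while the share of all sites called fell from 10.8% to 4.85%, 6.35% and 6.75%.

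The call of lowest p was at an intergenic site 17516 bp upstream of Gm11674 (chr11:111818089-111818585). Its fold enrichment was 2.37 and 2.37 for quiescent, 13.2 and 10.7 for activated, and 14.3 and 12.0 for reactivated libraries. The quiescent libraries were far below all others, with a log2 difference from activated of -2.29 (SE 0.21, limma adjusted p = 2.2e-05). The site near Gm23131 (chr3:148343505-148344426) had the same order, with 4.47 and 3.82, 13.9 and 11.3, and 18.8 and 20.4 (log2 difference -1.35, SE 0.14, limma adjusted p = 6.0e-05). Sites near Gm25437 (-1.70) and Gm9934 (-1.41) and in an intron of St8sia1, which encodes the ganglioside GD3 synthase (-1.47), completed the 5 calls of lowest p. H3K4me3 at all 5 was low in both states, 3.27 to 5.20 in quiescent and 3.34 to 4.38 in activated NSPCs.

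The window at the Gm11674 site and that at the call of lowest p in the other direction are shown with CpG in capitals.

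Higher in activated NSPCs, near Gm11674, chr11:111818292-111818491, + strand: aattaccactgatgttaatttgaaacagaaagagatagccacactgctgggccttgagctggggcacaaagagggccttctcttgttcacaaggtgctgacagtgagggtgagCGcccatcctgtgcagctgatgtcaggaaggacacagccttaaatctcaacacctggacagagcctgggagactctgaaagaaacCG

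Higher in quiescent NSPCs, near AC154488.1, chr17:51393790-51393989, + strand: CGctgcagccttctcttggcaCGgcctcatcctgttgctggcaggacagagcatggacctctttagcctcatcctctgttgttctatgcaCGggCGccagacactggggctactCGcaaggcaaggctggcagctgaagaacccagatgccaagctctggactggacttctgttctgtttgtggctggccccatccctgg

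Near AC154488.1 (chr17:51393621-51394274) the fold enrichment was 15.4 and 13.2 for quiescent, 9.02 and 6.99 for activated, and 19.6 and 18.6 for reactivated libraries, a log2 difference between quiescent and activated of 0.86 (SE 0.13, limma adjusted p = 0.00051). At the site upstream of Zfp704, which encodes a zinc finger protein (chr3:9629786-9630428), it was 11.3 and 9.75, 4.51 and 4.76, and 11.3 and 10.4 (log2 difference 1.26, SE 0.19, limma adjusted p = 0.00057). The exonic Jmjd1c site with the higher H3K4me3 in quiescent NSPCs was also called here, with 10.6 and 11.6, 7.03 and 4.71, and 16.3 and 16.5 (log2 difference 1.01, SE 0.16, limma adjusted p = 0.00063). At all 3 the activated libraries were the lowest and did not overlap the others.

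Comparing reactivated with activated NSPCs asks whether cells brought back from quiescence regained the profile of cells that had never left the cycle. Here 96 sites (6.56%) were higher in reactivated and 138 (9.43%) higher in activated NSPCs, where 9.27% and 8.83% of all constitutively open sites were called. Promoters had more lower calls also, with 701 (6.34%) higher and 1330 (12.0%) lower in reactivated NSPCs. Unmarked distal sites had the reverse, 1119 (13.5%) higher and 423 (5.12%) lower. The median log2 difference was -0.13 for the distal H3K4me3 sites and -0.03 for all sites. The excess of lower calls depended on the processing and on single libraries. Median centring gave 82 higher and 224 lower (5.60% and 15.3%, against 7.55% and 14.5% of all sites). Without normalization 645 sites (44.1%, against 52.9% of all sites) were higher in reactivated NSPCs and 5 lower, with the median of all sites shifted to 0.55. Fitted over distal sites alone, 50 were higher and 152 lower (3.42% and 10.4%, against 7.75% and 6.39% of all distal sites). Higher calls outnumbered lower ones, as they did over all sites, with mean fold enrichment (50 and 36, with 1054 and 777 over all sites) and with stricter peaks (69 and 53, with 1194 and 1114). The same held without the first reactivated library (24 and 14, with 532 and 453), the second (40 and 37, with 888 and 841) and the second activated library (50 and 30, with 1086 and 701). The share of all sites called fell from 18.1% to 4.36%, 7.65% and 7.91% without these libraries, and that of the distal H3K4me3 sites from 16.0% to 2.60%, 5.26% and 5.46%.

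The site 25314 bp from 1810024B03Rik (chr2:127182641-127183293) had 6.44 and 6.34 for quiescent, 5.70 and 4.28 for activated, and 19.6 and 19.9 for reactivated libraries, and the reactivated libraries stood apart from both other states (log2 difference from activated 1.57, SE 0.16, limma adjusted p = 4.7e-05). The site near Gm43567 (chr5:85772056-85772626) had 9.99 and 8.33, 10.1 and 8.98, and 23.0 and 21.8 (log2 difference 0.92, SE 0.13, limma adjusted p = 0.00065). Near Mos, which encodes a serine/threonine kinase of the germ line (chr4:3874912-3875401), the values were 6.70 and 5.20, 7.83 and 7.42, and 4.00 and 5.19, with the reactivated libraries lowest (log2 difference -1.26, SE 0.22, limma adjusted p = 0.0019). The site in an Fgfr1 intron (chr8:25543335-25543865), a gene for a receptor of FGF2, had 3.73 and 3.73, 7.86 and 6.48, and 4.80 and 4.78 (log2 difference -1.13, SE 0.22, limma adjusted p = 0.0036). These differences are after quantile normalization. Without scaling, 7 of the calls of lowest p in this comparison kept direction and call, and 3 kept direction alone.

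**Figure D4:**
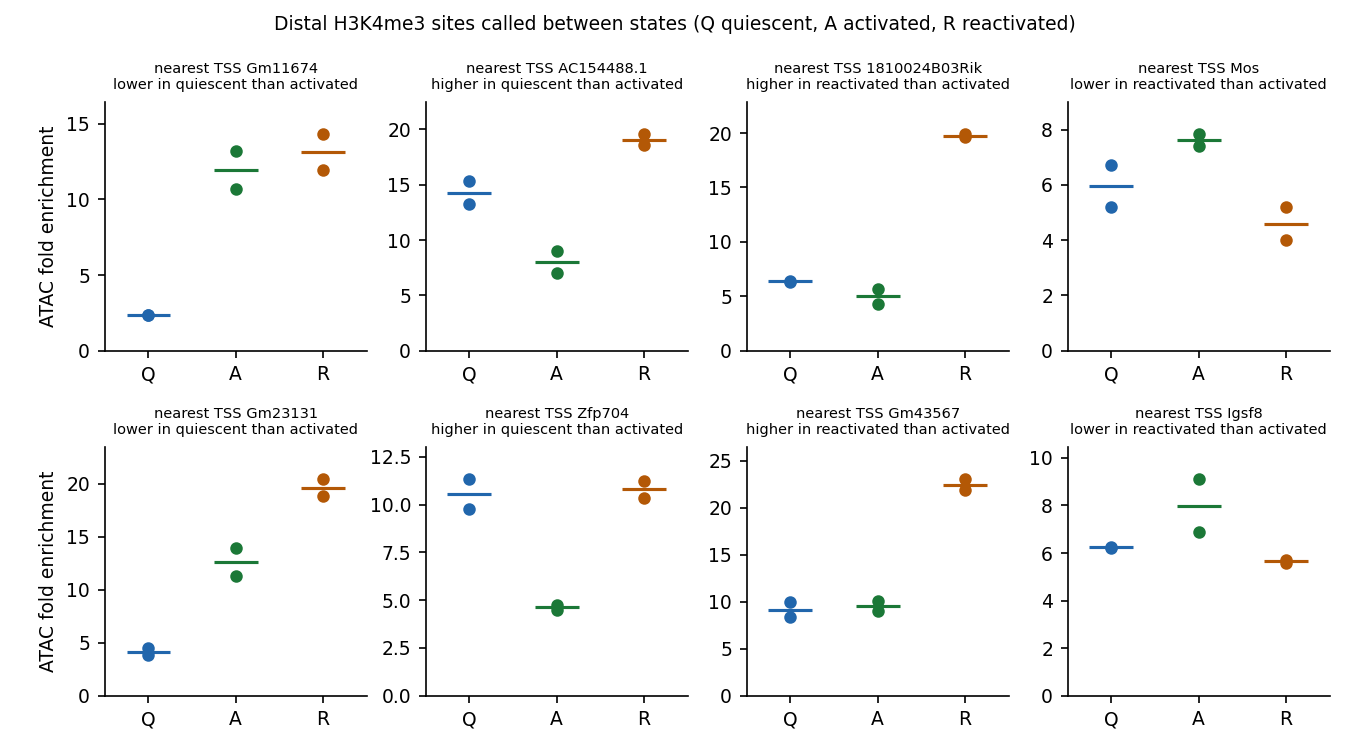
ATAC fold enrichment (vertical axis, linear from 0) at 8 distal H3K4me3 sites called between states, with 1 point per library and a line at the mean of the 2 libraries of a state (Q quiescent, A activated, R reactivated). At Gm11674 both quiescent libraries are at 2.37, and at 1810024B03Rik both reactivated libraries are at 19.6 or above while the other 4 are at 6.44 or below.

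Comparing reactivated with quiescent NSPCs gave the most calls, 202 (13.8%) higher in reactivated and 222 (15.2%) higher in quiescent NSPCs, where 13.7% and 14.1% of all constitutively open sites were called. The shares were close to those of all sites. Under quantile normalization, promoters had 943 (8.53%) higher and 1803 (16.3%) lower in reactivated NSPCs, and unmarked distal sites 1609 (19.5%) and 960 (11.6%). Under quantile normalization, sites with none of the annotations had 172 higher and 95 lower in reactivated NSPCs, flanks of promoter regions 2 and 43, and sites with a RefSeq start 27 and 40. These counts moved with scaling, while lower calls still outnumbered higher ones at flanks and sites with a RefSeq start under median centring. Median centring gave 182 higher and 341 lower in all (12.4% and 23.3%, against 11.5% and 25.7% of all sites), with 155 and 163 for sites with none of the annotations, 2 and 62 for flanks and 25 and 61 for sites with a RefSeq start. Without normalization 1001 sites (68.4%, against 68.5% of all sites) were higher in reactivated NSPCs and 5 lower, with the median of all sites at 0.73, and the same kinds had 755 and 0, 59 and 2, and 164 and 1. Leaving out the first reactivated library left 145 calls (9.90%, against 11.5% of all sites), and the second 223 (15.2%, against 15.9%). Without the first and second quiescent library 262 (17.9%, against 15.1%) and 242 (16.5%, against 14.9%) were left.

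The same libraries serve in more than 1 comparison, so the sites that recur are listed here with their own values and not as support for each other. Gm23131, Gm25437 and Gm11674 led the sites higher in reactivated than quiescent NSPCs, with log2 differences of 1.58, 1.78 and 1.87. A site in an intron of Tcf12, which encodes an E-protein transcription factor (nearest TSS Gm27152, chr9:71959614-71960074), had 6.84 and 5.12, 11.5 and 10.6, and 21.3 and 20.2 (log2 difference 1.18, SE 0.15, limma adjusted p = 7.7e-05). Among those lower in reactivated NSPCs was a site 44162 bp from Ccr1, a chemokine receptor gene (chr9:123924153-123925149), with 13.1 and 16.5, 10.4 and 15.5, and 10.2 and 8.28 (log2 difference -1.35, SE 0.21, limma adjusted p = 0.00044). Without scaling, 8 of the calls of lowest p in this comparison kept direction and call, and 2 kept direction alone. In total, 901 of the 1464 sites (61.5%) were called in none of the 3 comparisons, as were 62.5% of all constitutively open sites.

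Calls at tRNA sites were almost all lower in reactivated NSPCs in both comparisons under quantile normalization, and mostly higher without scaling. None of the 84 was higher in reactivated than activated NSPCs and 27 (32.1%) were lower, and against quiescent NSPCs 1 was higher and 44 (52.4%) were lower, where 8.83% and 14.1% of all constitutively open sites were, with medians of -0.51 and -0.63. Median centring gave 0 higher and 42 lower, and 0 higher and 55 lower, where 14.5% and 25.7% of all sites were lower. Without scaling, 52.9% and 68.5% of all sites were higher. Of the tRNA sites 6 were higher and 1 lower against activated, and 23 higher and 2 lower against quiescent NSPCs. Their medians were 0.09 and 0.17, below those of all sites, 0.55 and 0.73. Median centring moves all sites of a library alike, so the same gap to all sites under it was fixed and is no separate support. Median fold enrichment of the tRNA sites was 5.39 and 4.96 for quiescent, 5.94 and 4.98 for activated, and 5.85 and 5.99 for reactivated libraries, level across states, while that of the 984 sites without annotation went from 5.52 and 5.04 and 7.31 and 5.99 to 10.4 and 10.6.

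The counts of tRNA sites fell when single libraries were left out, as did those of all sites. Against activated NSPCs 1 of the 84 was lower when the first reactivated library was left out, 5 without the second, 5 without the second activated library and 17 without the first, where 2.01%, 3.72%, 3.10% and 6.83% of all sites were lower. The 1 of 84 was thus below the share of all sites. Against quiescent NSPCs the counts were 12 and 22 without the first and second reactivated library, and 22 and 28 without the first and second quiescent library, where 5.52%, 7.76%, 6.56% and 6.32% of all sites were lower. The 43 promoter sites that contain a tRNA gene had 0 higher and 13 lower in reactivated than activated NSPCs, and 0 higher and 20 lower than in quiescent NSPCs, while without scaling 7 were higher and 1 lower, and 13 higher and 0 lower. The site next to 9330160F10Rik with tRNA-Ser n-TSgct3 and tRNA-Thr n-TTagt7 (chr11:69062691-69063208) was among the 5 lower calls of lowest p against quiescent NSPCs, with 4.19 and 4.82, 4.39 and 4.03, and 2.45 and 2.31 in quiescent, activated and reactivated libraries (log2 difference from quiescent -1.35, SE 0.22, limma adjusted p = 0.000655). It was lower in reactivated NSPCs in the raw values also. H3K4me3 was not mapped in reactivated NSPCs, and a part of depth or library quality in this difference was not tested. The background value, 1 per library and not per site, was 6.50 and 6.52 for the reactivated libraries. This was close to the first quiescent (6.61) and both activated libraries (6.54 and 6.01), while the second quiescent library had 12.1. The reactivated libraries had higher pileups at the distal H3K4me3 sites (medians 119.5 and 114.5, against 46 to 69).

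**Figure D5:**
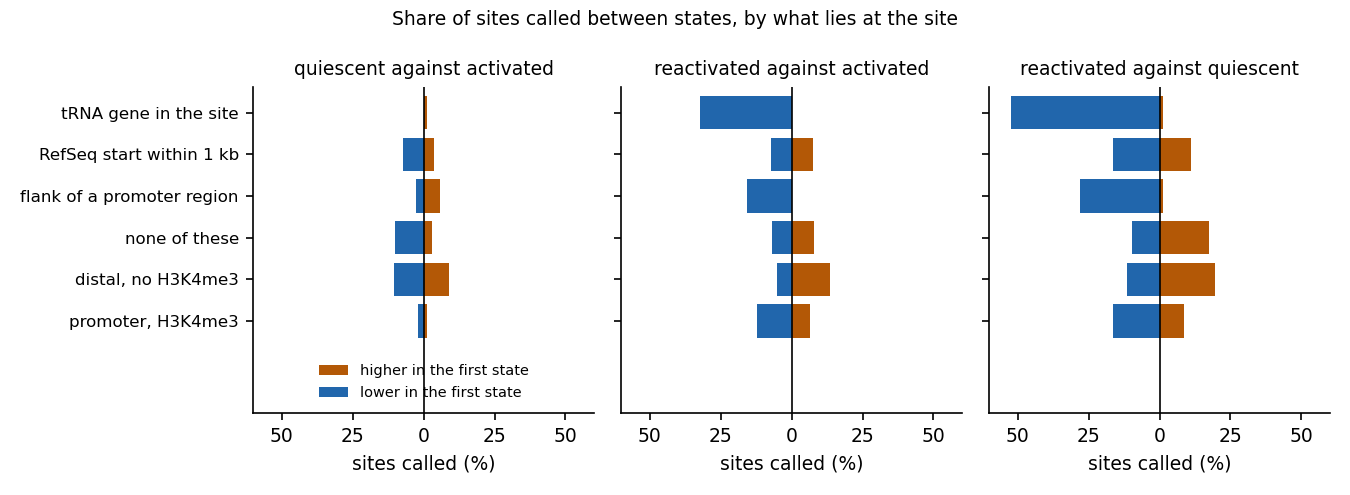
Share of sites called in each comparison (%, horizontal axis, right for higher and left for lower in the first-named state), by kind of distal H3K4me3 site and for the other classes, under quantile normalization. Of the tRNA sites 32.1% and 52.4% were lower in reactivated than in activated and quiescent NSPCs, and flanks of promoter regions had 0 and 2 sites higher.

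The nearest genes numbered 1266, and 1127 of them had 1 site. The nearest TSS was that of a protein-coding gene at 813 sites, covering 700 of 21911 protein-coding genes (3.19%). Of 91 neural stem cell and glial transcription factor genes, 20 (22.0%) had a site, 28 in all. For signalling genes these were 11 of 77 (14.3%), for cell cycle genes 8 of 60 (13.3%), for chromatin genes 9 of 101 (8.91%), for RNA splicing genes 5 of 102 (4.90%) and for translation genes 3 of 165 (1.82%). The translation list matched Eef2k and Rps6ka1 by name, which encode kinases, so Rpl29 was its only ribosomal protein gene. These counts are a description, with no test of a list. A promoter with H3K4me3 was found for 74 of the 91 transcription factor, 64 of 77 signalling and 58 of 60 cell cycle genes. It was found for 83 of 101 chromatin, 80 of 102 splicing and 122 of 165 translation genes, against 9426 of all 21911. The 3.19% over all protein-coding genes is thus not a like baseline for the lists.

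Among transcription factor genes, Fos, an immediate early gene, had sites 18446 bp upstream (chr12:85454931-85456043; 11.1 and 11.3, 13.5 and 11.6, 14.8 and 16.0) and 11182 bp downstream of its TSS (chr12:85485747-85486477). Both were CpG-rich, with H3K4me3 of 18.4 and 22.1 in quiescent NSPCs that was 11.9 and 18.9 in activated NSPCs, and neither site's accessibility was called in any comparison. The site near Egr1, another immediate early gene, was CpG-rich with H3K4me3 of 21.5 and 20.1 and was likewise not called.

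Signalling and cell cycle genes gave examples of called and uncalled sites. The Notch1 site at 2869 bp (chr2:26500525-26501170, exon) was a flank of the promoter region, with H3K4me3 of 47.1 and 43.0 and ATAC values of 6.51 and 5.90, 6.56 and 6.15, and 5.85 and 5.84. It was lower in reactivated than quiescent NSPCs relative to other sites (log2 difference -0.92, SE 0.21, limma adjusted p = 0.0045), but not without scaling (-0.08, limma adjusted p = 0.75). The Bmpr1b site, upstream of a gene for a BMP receptor (chr3:141936559-141937171, intron), had 8.66 and 6.23, 12.6 and 7.57, and 12.5 and 10.6 and passed no test. Ccnd3, the gene of cyclin D3, had an intronic site (chr17:47545696-47546321) with 4.60 and 2.90, 4.11 and 4.42, and 10.9 and 11.4, higher in reactivated than quiescent NSPCs (log2 difference 0.75, SE 0.24, limma adjusted p = 0.030). That call was lost when fitted over distal sites alone (0.67, limma adjusted p = 0.052). It was also lost without the second quiescent library (0.45) and without the first (0.76) or second reactivated library (0.74). The CpG-rich Ccne1 site printed above was not called in any comparison.

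Chromatin genes were represented by Kdm5b, Setd5, Arid1a and Chd7. Kdm5b encodes an H3K4 demethylase, and its site 3121 bp upstream (chr1:134556313-134557253) had H3K4me3 of 31.2 in quiescent and 20.8 in activated NSPCs with ATAC values of 8.70 and 9.59, 9.91 and 11.8, and 13.6 and 11.1. It was called in none of the comparisons. Chd7 encodes a chromatin remodeller, and its intronic site (chr4:8799051-8799911) had 3.94 and 5.04, 11.8 and 10.5, and 10.9 and 11.9. The quiescent libraries were below all others (log2 difference from activated -1.08, SE 0.19, limma adjusted p = 0.0016), and with mean fold enrichment the site was not called (-0.74, limma adjusted p = 0.13). Splicing genes included Sf3a3, Mbnl1 and Srsf9, whose sites were not called in any comparison.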

How the data were processed

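ATAC-seq was measured in 6 libraries (2 each of quiescent, activated and reactivated NSPCs) and H3K4me3 in 1 library each of quiescent and activated NSPCs. Per the study's methods and processing notes, the authors trimmed reads with Trim Galore 0.4.0, aligned them to mm10 with Bowtie2 2.2.5, removed duplicates with Picard 1.88 and SAMtools 1.3.1, and called peaks with MACS in each library separately, at an FDR of 0.05 for ATAC-seq and with a broad q of 0.05 and cutoff of 0.01 for H3K4me3. The deposited peak lists give a fold enrichment (a ratio to local background), −log10 p and q values and a score per peak, and no read counts. The study's methods give 1 approximate depth for all ATAC-seq libraries, and its supplement lists a table of their read numbers. Depth per library was not read here. Pileups at the sites were recovered from the deposited values (whole within 0.02% at 97.4% or more of sites), and they mix depth with enrichment. The methods call the mapped reads unique, and whether this left out multiply mapped reads is not given in the sources used here.

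Sites were formed by merging overlapping or abutting ATAC peaks on chromosomes 1 to 19. TSSs were those of GENCODE, and sequence, tRNA genes and RefSeq starts came from RefSeq GRCm38.p6. The highest fold enrichment of a library at a site was log2 transformed without a pseudocount, quantile normalized and fitted with limma 3.58.1 (R 4.3.3, eBayes with trend) over all 22589 sites open in 6 libraries, with Benjamini-Hochberg adjustment. On data simulated for the comparison of quiescent with activated, with 22589 sites, 71% of 100 sites changed by 1 log2 unit and all of 100 changed by 2 were recovered. Other steps used Python 3.11.15 (numpy 2.4.6, pandas 2.3.3, scipy 1.17.1, pysam 0.24.0).

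Named sites were the 6 most accessible, the 5 farthest from a TSS, the most accessible in each of the 5 widest H3K4me3 regions, up to 5 calls per comparison and direction, up to 4 per gene list and those next to the 1 kb limit, from which the text takes examples. tRNA sites, the array and the RefSeq starts were added after values had been seen. The sites and gene lists were chosen with earlier results of these data known. Alternatives were another scaling, mean fold enrichment, stricter peaks, other TSS sets and distances, another sequence window, the replicate number as a block and each library left out.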

Additional observations from a re-analysis of the deposited data

How the results depend on the processing

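Group sizes of 2 limit every test, and sites that closed in a state were outside the set by rule. Requiring peaks at −log10 q of 10 or more reduced the 1464 sites to 892, while leaving out 1 library gave 1472 to 1603. The share in an H3K4me3 region with a TSS was 12.2% with those peaks, 5.27% with a 2 kb limit and 31.5% with TSSs of protein-coding genes alone. The CpG-rich share was 35.7%, 27.1% and 35.0% under these settings, 32.3% with every list limited to its strongest peaks, 35.2% where H3K4me3 had to cover 50% of a site, 26.5% with RefSeq starts added (chosen after seeing the data) and 24.9% in a 600 bp window. The share with a CTCF motif stayed between 3.45% and 4.30%. The median log2 H3K4me3 ratio was -0.18 where the mark had to cover 50% of a site.

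Calls between quiescent and activated numbered 202 with median centring (73 higher, 129 lower) and 218 without scaling (20 and 198), against 168 (47 and 121). They fell to 62 with mean fold enrichment and to 67 with the stricter peaks, and to 87 to 131 with 1 library left out. Calls between reactivated and activated went from 234 to 306 with median centring, 650 without scaling, 86 with mean fold enrichment, 122 with stricter peaks and 38 to 217 with 1 library left out. Between reactivated and quiescent they went from 424 to 523, 1006, 235, 215 and 145 to 452 under the same settings. The stricter peaks left fewer sites to test. For the other changes the cause was not tested. tRNA sites lower in reactivated than activated NSPCs numbered 42 with median centring, 1 without scaling, 10 with mean fold enrichment and 1 to 26 with 1 library left out, against 27. Those lower than in quiescent NSPCs numbered 2 without scaling, 26 with mean fold enrichment and 12 to 48 with 1 library left out, against 44. The tRNA alternatives were chosen after seeing the data. With 1 library left out, the remaining library of that state was assumed to vary like those of the other states.

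With the replicate number as a replicate block, calls were 174, 231 and 421, and 25 and 45 for tRNA sites. Deviations of same-numbered libraries correlated at 0.02, 0.03 and -0.02 over the 1464 sites. This does not show whether same-numbered libraries were prepared together. The 5 calls of lowest p per comparison and direction were selected in the main fit of these same libraries. That they hold under refits was therefore partly fixed and is no separate support. For the 5 calls of lowest p per comparison and direction, 335 values under the alternatives kept direction and call, 9 kept direction and lost the call, and 0 reversed, while 16 of these 30 had no value with stricter peaks.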
